A study of Mus musculus with 72 samples.

Results

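The 10 genes described here are the cadherins Cdh1 and Cdh2, the epithelial surface genes Epcam and Cldn6, the mesenchymal genes Vim and Fn1, and the repressors Snai1, Snai2, Zeb1 and Zeb2. They were chosen by name as the usual markers of a cadherin switch and of epithelial-mesenchymal transition, with earlier results of these data known. Each was read from its transcript with the highest total count. They are 10 of 45321 genes with a matched transcript, and all 10 are among the 18273 genes that passed the filter on low counts and were tested. Poly(A) RNA of mouse embryonic stem cells (mESC) was sequenced at 3 times on the way to neuroectoderm, in control cells and in cells that lack Nup133, a scaffold subunit of the nuclear pore. Control samples were HM1 (Nup133+/+, 40 chromosomes, XY) sampled as 2 biological replicates, and line 1A4, derived from a blastocyst (Nup133+/+, Sox1gfp/+, 40 chromosomes, XY). Knockout samples were lines 14 (Nup133-/-, 40 chromosomes, XY) and 19 (Nup133-/-, likely 40 chromosomes, XY), both made from HM1 with CRISPR/Cas9, and line 319 (Nup133merm/merm, Sox1gfp/+, 42 chromosomes, XX +8 +12), which is blastocyst-derived. At day 0 the cells came from serum with leukemia inhibitory factor on DR4 mouse embryonic fibroblast feeders, which were removed by a short plating step. Day 2 cells had grown without feeders in N2B27 medium, and day 3 cells had then received 1 µM retinoic acid for 24 h. Every combination of genotype and day, 6 in all, held 3 samples. Each knockout line and line 1A4 gave 1 sample a day, so p-values measure the spread between these lines and replicates.

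E-cadherin, the product of Cdh1, holds epithelial cells and mESC together through homophilic contacts that catenins link to actin, and N-cadherin, the product of Cdh2, does the same in neural and mesenchymal cells. When the epiblast turns into neural plate or into mesoderm, cells exchange the former for the latter. The zinc finger proteins of the Snail and Zeb families bind E-boxes in promoters of epithelial genes, Cdh1 among them, and repress them, while vimentin and fibronectin are classical products of mesenchymal cells.

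The E-box best known for these repressors reads CACCTG on 1 strand and CAGGTG on the other, so both words were searched for in the 250 bases before the RefSeq start (GRCm38.p6) of each member with a usable window. Of 5 such members, 3 held at least 1 match: Epcam, Cldn6 and Snai1. Vim and Zeb2 held none. Among 27025 genes with a window 19.4% held at least 1 match and 2.39% at least 2. The windows of Epcam, the member with 2 matches, and of Snai1, the repressor with 1, are shown 5′ to 3′ with the matches in capitals.
Epcam, chr17:87635729-87635978, plus strand: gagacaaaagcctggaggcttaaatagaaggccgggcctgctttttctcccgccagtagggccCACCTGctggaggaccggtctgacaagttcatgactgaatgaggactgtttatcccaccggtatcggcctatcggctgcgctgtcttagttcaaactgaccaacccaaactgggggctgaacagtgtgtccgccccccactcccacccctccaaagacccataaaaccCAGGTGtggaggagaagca
Snai1, chr2:167537945-167538194, plus strand: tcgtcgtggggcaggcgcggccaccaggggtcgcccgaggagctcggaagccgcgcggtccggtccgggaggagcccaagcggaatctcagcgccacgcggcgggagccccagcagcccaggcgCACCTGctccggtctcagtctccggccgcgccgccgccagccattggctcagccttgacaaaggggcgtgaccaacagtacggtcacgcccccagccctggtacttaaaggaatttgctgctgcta
The matches of Epcam begin at -187 and -19 from the start and that of Snai1 at -126. The match of Cldn6 begins at -93 from its RefSeq start. Its window, chr17:23679115-23679364, reaches past 23679249, where the transcript counted here starts, and the match lies within the span of that transcript. The window of Vim, chr2:13574061-13574310, also lies past the start of its counted transcript at 13573952. These are matches of letters, and nothing was measured at them.

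The labels were checked before the genes were compared. Nup133 lay at 237, 245 and 323 CPM (counts per 1000000 gene counts, TMM-scaled) in the day 0 controls, in the order HM1 replicate 1, HM1 replicate 2, line 1A4, and at 27.9, 37.1 and 23.9 CPM in lines 14, 19 and 319. The levels were 229, 236 and 268 CPM against 20.2, 36.0 and 19.9 CPM at day 2, and at 187, 179.5 and 216 CPM against 17.2, 24.1 and 14.3 CPM at day 3, so the genotypes did not overlap at any day. The summed level of the Y-linked genes Ddx3y, Uty, Kdm5d and Eif2s3y was 104 to 327 CPM in the controls, 3.09 to 10.4 CPM in lines 14 and 19, which are labelled XY, and at most 0.673 CPM in line 319. Line 319 is labelled with an extra chromosome 8, yet the median of 751 tested genes of that chromosome lay -0.41, -0.58 and -0.53 (log2, days 0, 2 and 3) from line 1A4, whereas that of 488 genes of chromosome 12 lay 0.44, 0.48 and 0.48 above it. In line 19 the chromosome 8 median lay -0.22, -0.31 and -0.39 from the HM1 mean, and in line 14 -0.05, -0.06 and -0.08. Cdh1 lies on chromosome 8. Samples held 16.5 M to 54.4 M gene counts (M, 1000000). The smallest, line 19 at day 2, stood apart from the other day 2 samples in an earlier look at these data, and each call on a member that changed without it is given.

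Length-scaled levels (CPM per kb of transcript) give the order of the members. In the day 0 controls Fn1 (212 ± 32.6, SD, n = 3), Cdh1 (208 ± 12.9) and Vim (159 ± 55.2) led and did not differ beyond their spread. Epcam (71.9 ± 11.2) and Cldn6 (41.4 ± 5.21) followed. Cdh2 was far lower at 4.77 ± 1.16, above Zeb1 (3.25 ± 0.688) and Snai1 (3.08 ± 0.735), which overlapped each other, and Zeb2 (0.836 ± 0.239) and Snai2 (0.601 ± 0.117) came last. At day 3 the order in controls began with Cdh1 (106 ± 27.1 CPM per kb), and Zeb2 had moved to 8.55 ± 1.38, beside Cdh2 at 10.6 ± 1.94. In the day 3 knockout samples Vim (70.0 ± 10.1) stood first and Cdh1 (50.0 ± 31.1) second, but Vim, Cdh1 and Epcam (44.4 ± 25.8) overlapped within 1 SD, Cdh1 exceeded Vim in line 319 (85.0 against 59.3), and Cdh1, Epcam, Fn1 (39.9 ± 8.93), Cldn6 (28.8 ± 20.7) and Cdh2 (21.4 ± 12.2) also overlapped one another.

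**Figure D1:**
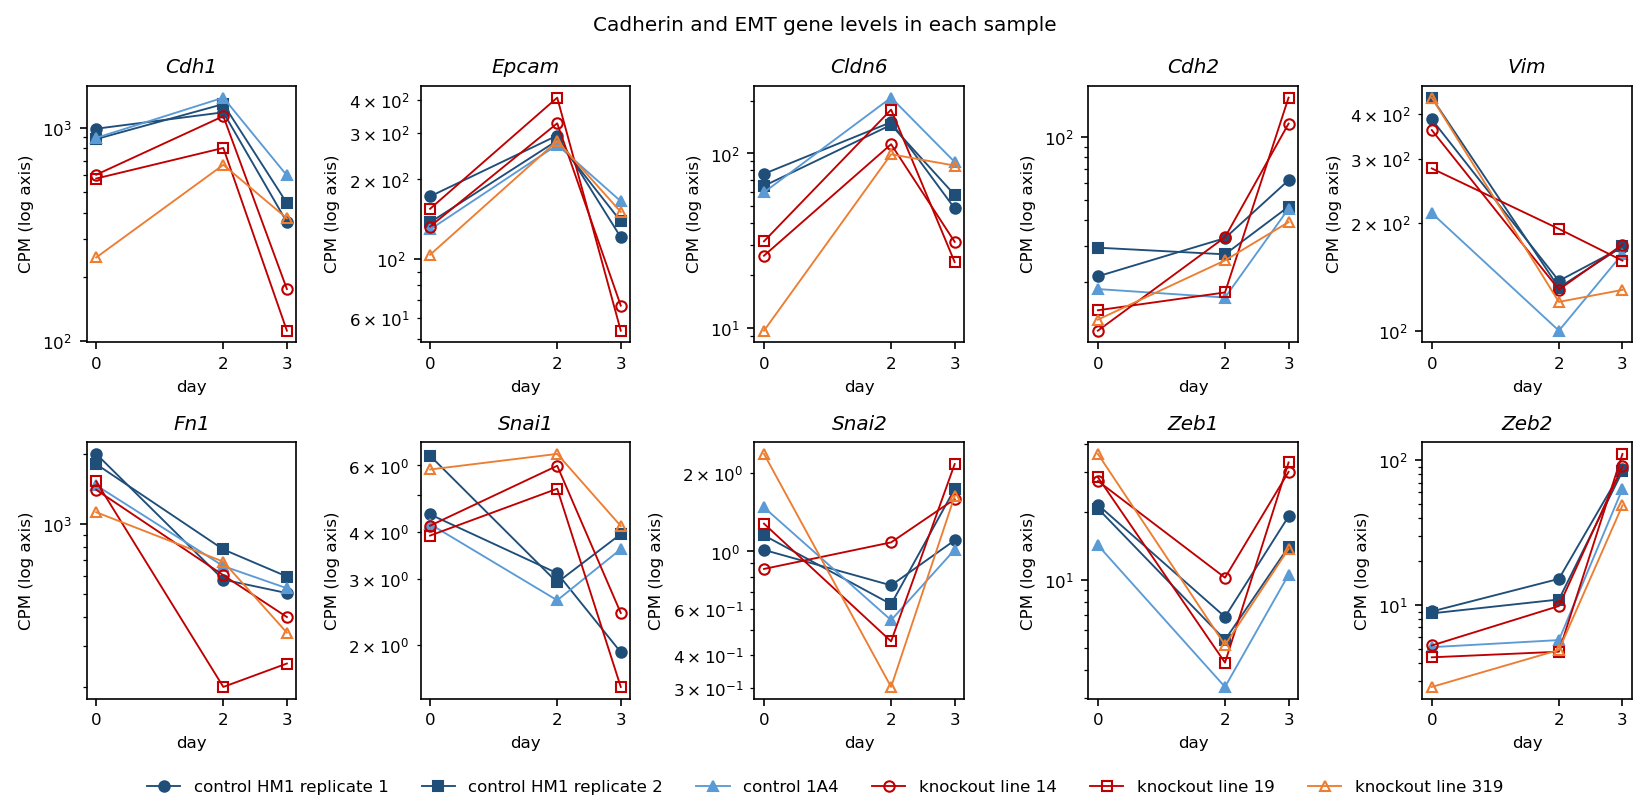
Level of each of the 10 genes (CPM, log axis) against day in each of the 6 series, with control series filled and knockout lines open. Zeb2 climbed steeply from day 2 to day 3 in all 6 series, while Cdh1 and Epcam peaked at day 2 in all 6.

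Between days the members moved in a shared order in both genotypes. From day 0 to day 2 the epithelial genes Epcam and Cldn6 rose and Vim, Fn1 and Zeb1 fell. From day 2 to day 3, over the day of retinoic acid, Cdh1, Epcam and Cldn6 fell while Cdh2, Zeb1 and Zeb2 rose. Vim and Fn1 were not among the genes that changed at the later step, and Snai1 was not called higher at either step in either genotype. Genes were called at an adjusted p below 0.05 (edgeR quasi-likelihood test with Benjamini-Hochberg adjustment over all genes tested).

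In controls 5 of 10 members were called from day 0 to day 2, where 35.2% of all genes were, and 6 of 10 from day 2 to day 3, where 21.4% were. In knockout samples 7 of 10 were called at the first step, against 35.9% of all genes, and 8 of 10 at the second, against 33.6%. The median log2 change of the members was -0.34 and 0.29 in controls at the 2 steps, and 0.53 and -0.26 in knockout samples, with medians of 0.01, 0.00, 0.06 and 0.00 over all genes. Since the members went in both directions, the median size of change describes them better: it was 0.93 and 1.02 in controls, against 0.51 and 0.40 over all genes, and 1.27 and 1.72 in knockout samples, against 0.54 and 0.54.

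**Figure D2:**
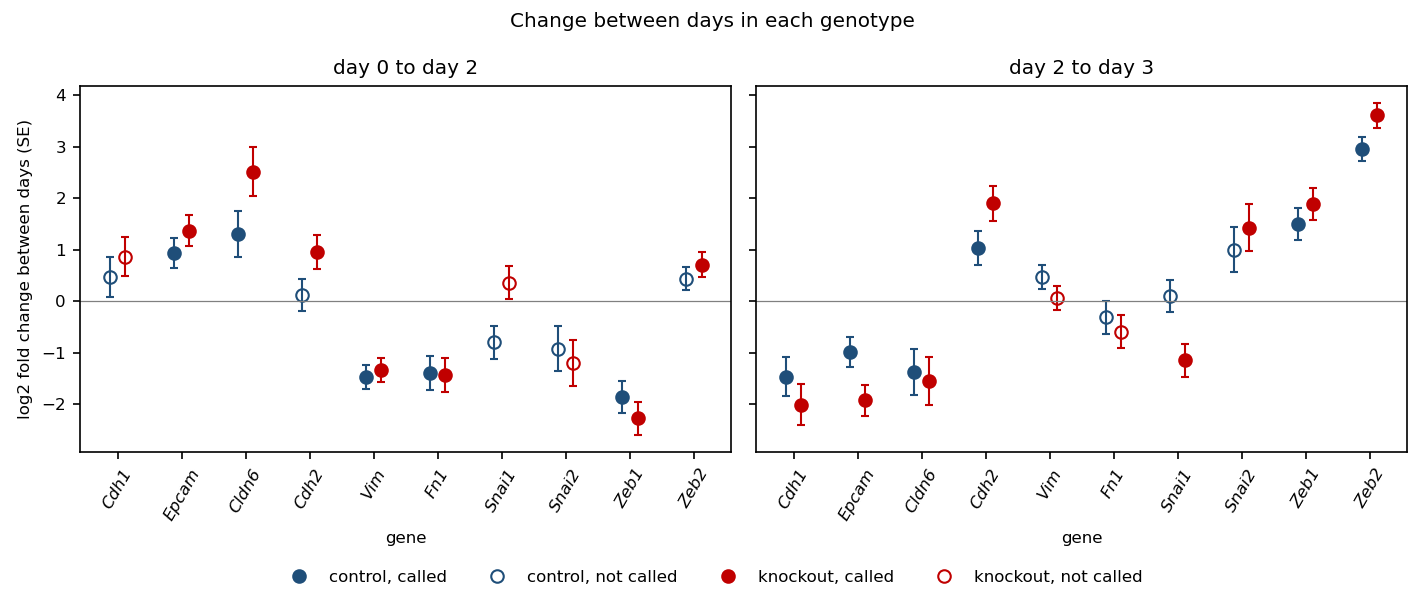
Log2 fold change with its standard error between days 0 and 2 and between days 2 and 3, for the control samples and the knockout samples. Filled points passed an adjusted p of 0.05; Zeb2 had the highest value at the later step, 2.96 in controls and 3.61 in knockout samples.

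Cdh1 (ENSMUSG00000000303, GRCm38 chromosome 8, 106603351 to 106670246, plus strand, 16 exons) encodes E-cadherin. Its level at day 0 was 989, 884 and 896 CPM in HM1 replicate 1, HM1 replicate 2 and line 1A4, and 602, 578 and 247 CPM in lines 14, 19 and 319. At day 2 it was 1179.9, 1289.6 and 1382 CPM in the same controls and 1132, 804 and 670.1 CPM in the same knockout lines, and at day 3 361, 444 and 598 CPM and 176, 112 and 377 CPM. All 6 series were highest at day 2, and every day 3 sample lay below every day 2 sample. The fall from day 2 to day 3 was 2.76-fold in controls (log2 -1.47 ± 0.38, SE, edgeR adjusted p = 0.012) and 4.02-fold in knockout samples (-2.01 ± 0.40, edgeR adjusted p = 0.0014). The step from day 0 to day 2 was 0.47 ± 0.38 and 0.86 ± 0.38 and did not pass (edgeR adjusted p = 0.36 and 0.089).

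Epcam (chromosome 17, 87635979 to 87651106, plus strand, 10 exons) encodes an adhesion molecule of epithelia and of pluripotent cells. Its level at day 0 was 173, 138 and 129.6 CPM in the controls and 133, 155 and 104 CPM in the knockout lines, in the order used above. At day 2 it was 293, 280.4 and 270.0 CPM against 326, 407 and 279 CPM, and at day 3 121, 139 and 166 CPM against 67.0, 53.9 and 151 CPM. The day 2 samples lay above all samples of the other days, and at day 3 lines 14 and 19 lay apart from line 319, which was within the control range. Epcam rose by 0.93 ± 0.29 in controls and 1.37 ± 0.30 in knockout samples on the log2 scale (edgeR adjusted p = 0.021 and 0.0022). It then fell by 0.99 ± 0.29 and 1.93 ± 0.30 (edgeR adjusted p = 0.024 and 0.00027).

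Cldn6 (chromosome 17, 23679249 to 23682446, plus strand, 3 exons) encodes a tight junction claudin of early embryonic epithelium. Its level at day 0 was 76.4, 65.1 and 59.8 CPM in the controls and 25.9, 31.4 and 9.63 CPM in the knockout lines. At day 2 it was 151, 146 and 209 CPM against 113, 178 and 98.9 CPM, and at day 3 48.4, 57.8 and 89.3 CPM against 31.1, 23.8 and 85.2 CPM. Line 319 held the lowest Cldn6 of all samples at day 0 and the highest of the knockout lines at day 3. The gene rose from day 0 to day 2 by 1.31 ± 0.45 in controls and 2.52 ± 0.47 in knockout samples (log2, edgeR adjusted p = 0.033 and 0.00069). It fell from day 2 to day 3 by 1.38 ± 0.45 and 1.55 ± 0.46 (edgeR adjusted p = 0.038 and 0.018), and the knockout step no longer passed without line 19 at day 2 (-1.23, edgeR adjusted p = 0.065).

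Cdh2 (chromosome 18, 16588877 to 16809246, minus strand, 16 exons) encodes N-cadherin. Its level at day 0 was 21.4, 29.4 and 18.6 CPM in the controls and 11.7, 14.7 and 13.2 CPM in the knockout lines. At day 2 it was 32.6, 27.3 and 16.9 CPM against 33.0, 17.9 and 25.5 CPM, and at day 3 62.1, 46.3 and 45.3 CPM against 116, 155 and 39.0 CPM. Lines 14 and 19 at day 3 lay above every other sample, and line 319 lay below the 3 controls. Cdh2 rose from day 2 to day 3 by 1.04 ± 0.33 in controls and 1.90 ± 0.34 in knockout samples (log2, edgeR adjusted p = 0.032 and 0.00066). The earlier step was called in knockout samples (0.95 ± 0.33, edgeR adjusted p = 0.034), and its value in controls was 0.12 ± 0.32 (edgeR adjusted p = 0.80).

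The levels of the 2 cadherins per kb of transcript were set against each other in each series. Cdh1 stood 50.6, 32.9 and 52.8 times above Cdh2 in the day 0 controls and 56.3, 43.1 and 20.4 times above it in lines 14, 19 and 319. At day 2 the ratios were 39.5, 51.7 and 89.4 in controls and 37.5, 49.2 and 28.7 in knockout lines. At day 3 they were 6.36, 10.5 and 14.4 in controls and 1.65, 0.791 and 10.6 in knockout lines. Line 19 at day 3 was thus the sample in which the Cdh2 level exceeded that of Cdh1. Line 14 came next, and line 319 lay among the controls at that day. Line 319 had the lowest ratio of all series at days 0 and 2, and its ratio fell least from either day to day 3. Cdh2 made up 37.7% and 55.8% of the summed level of both in lines 14 and 19 at day 3, 8.65% in line 319, and 6.48% to 13.6% in the controls.

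**Figure D3:**
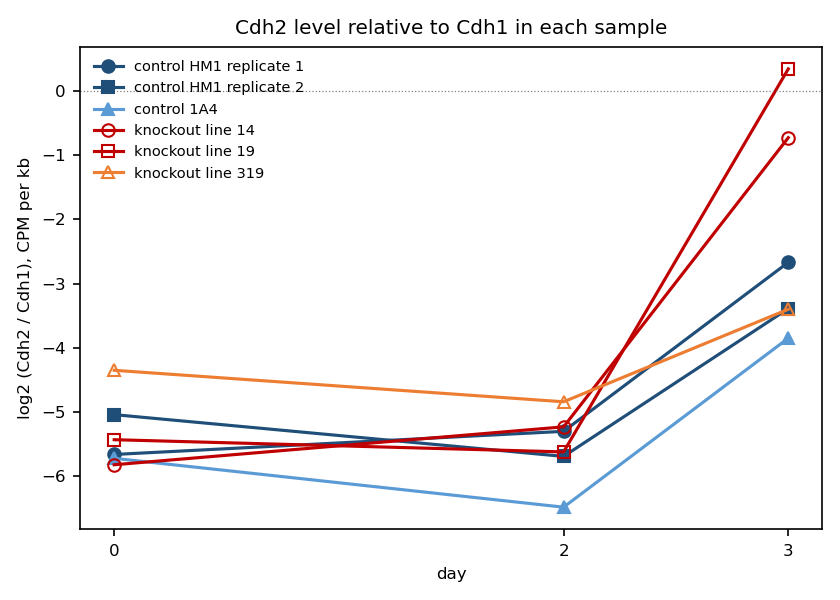
Log2 ratio of the Cdh2 level to the Cdh1 level (both CPM per kb) against day for each series. The ratio rose in all 6 series from day 2 to day 3 and reached 0.34 in line 19 and -0.73 in line 14, while the other 4 series ended between -3.85 and -2.67.

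Vim and Fn1 took another course. Vim (chromosome 2, 13573952 to 13582826, plus strand, 9 exons), an intermediate filament gene, lay at 388, 445 and 213 CPM in the day 0 controls and at 362, 283 and 445 CPM in the knockout lines. It was 138, 132 and 100.1 CPM against 130.3, 192 and 120.4 CPM at day 2, and 171, 172 and 164 CPM against 174, 157 and 130.0 CPM at day 3. All day 0 samples were above all later ones, and the genotypes overlapped at each day. Vim fell from day 0 to day 2 by 1.48 ± 0.23 and 1.34 ± 0.23 (log2, controls and knockout, edgeR adjusted p = 0.00019 and 0.00042), and its later step was 0.47 ± 0.23 and 0.06 ± 0.23 (edgeR adjusted p = 0.16 and 0.86).

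Fn1 (chromosome 1, 71585524 to 71653175, minus strand, 46 exons) encodes the matrix protein fibronectin. Its level was 2004, 1812 and 1469 CPM in the day 0 controls and 1406, 1529 and 1126 CPM in the knockout lines. At day 2 it was 578, 779.6 and 661 CPM against 604, 200.3 and 690.9 CPM, and at day 3 506, 596 and 531 CPM against 399.7, 252 and 342 CPM. Line 19 at day 2 lay far below the other day 2 samples, and at day 3 every knockout line was below every control. Fn1 fell from day 0 to day 2 by 1.39 ± 0.33 and 1.44 ± 0.33 (edgeR adjusted p = 0.0039 and 0.0032). Its later step was -0.31 ± 0.32 and -0.59 ± 0.32 (edgeR adjusted p = 0.55 and 0.17), and in knockout samples it was -1.0 (edgeR adjusted p = 0.00093) without line 19 at day 2.

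Feeder fibroblasts also express Vim and Fn1. The summed level of 17 fibroblast markers at day 0 was 648, 597 and 304 CPM in the controls and 382, 232 and 313 CPM in lines 14, 19 and 319, and it ranged from 253 to 326 CPM in controls and 170.3 to 218 CPM in knockout lines at day 2. At day 3, also without feeders, it was 403 to 513 CPM in controls and 267 to 399 CPM in knockout lines. At day 0 line 1A4 had the lowest sum and the lowest Vim of the controls, whereas line 319 had the highest Vim of the knockout lines and not the highest sum. In the day 0 controls the means of the 17 markers ran from 96.6 ± 43.7 CPM for Tagln to 0.0806 ± 0.0487 CPM for Lum. Col1a1 averaged 52.5 ± 12.4 CPM and Dcn 0.355 ± 0.0676 CPM. From day 0 to day 2 in controls, 2 of 16 tested markers were called higher and 8 lower (edgeR, 62.5%, beside 35.2% of all genes). The part of feeder cells in the levels of Vim and Fn1 was not tested. In bulk samples such as these, fewer cells of a type and less RNA per cell cannot be told apart.

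The repressors were low, and the Zeb genes moved most. Zeb1 (chromosome 18, 5591864 to 5775467, plus strand, 8 exons) lay at 21.5, 20.7 and 14.2 CPM in the day 0 controls and 27.4, 28.5 and 36.2 CPM in the knockout lines. It was 6.85, 5.42 and 3.35 CPM against 10.2, 4.30 and 5.14 CPM at day 2, and 19.1, 14.0 and 10.5 CPM against 30.1, 33.1 and 13.7 CPM at day 3. Zeb1 thus dipped at day 2 in all 6 series and rose again at day 3, the reverse in direction of the epithelial genes. In line 319 the day 3 level still lay -1.4 (log2) from that of day 0. It fell by 1.87 ± 0.31 and 2.28 ± 0.32 from day 0 to day 2 (log2, edgeR adjusted p = 0.00031 and 6.9e-05) and rose by 1.50 ± 0.31 and 1.89 ± 0.31 from day 2 to day 3 (edgeR adjusted p = 0.0029 and 0.00041).

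Zeb2 (chromosome 2, 44983632 to 45117395, minus strand, 11 exons) is known for its role in neural and neural crest development. It lay at 9.02, 8.75 and 5.11 CPM in the day 0 controls and at 5.25, 4.35 and 2.71 CPM in the knockout lines. It was 15.1, 10.9 and 5.72 CPM against 9.83, 4.75 and 4.88 CPM at day 2, and 86.5, 84.1 and 63.5 CPM against 90.9, 111 and 48.8 CPM at day 3. The lowest day 3 sample was above the highest of the other days. Zeb2 rose 7.80-fold in controls (2.96 ± 0.24, edgeR adjusted p = 6.3e-07) and 12.2-fold in knockout samples (3.61 ± 0.25, edgeR adjusted p = 1.1e-07) from day 2 to day 3. Its earlier step was 0.44 ± 0.23 in controls (edgeR adjusted p = 0.15) and 0.71 ± 0.24 in knockout samples (edgeR adjusted p = 0.028), where line 19 changed by 0.13. The control step passed when line 19 at day 2 was left out of the fit (0.45, edgeR adjusted p = 0.034). Zeb2 shares exon sequence with Zeb2os on the opposite strand (658 counts in all, against 22210 for Zeb2) and with Mir5129 (288 counts).

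Snai1 (chromosome 2, 167538195 to 167542814, plus strand, 3 exons), the founding repressor of Cdh1, lay at 4.45, 6.37 and 4.19 CPM in the day 0 controls and 4.15, 3.90 and 5.85 CPM in the knockout lines. It was 3.10, 2.93 and 2.63 CPM against 5.99, 5.20 and 6.44 CPM at day 2, and 1.91, 3.94 and 3.59 CPM against 2.43, 1.54 and 4.14 CPM at day 3. At day 2 the lowest knockout line stood above the highest control, and the groups overlapped at the other days. In knockout samples Snai1 fell from day 2 to day 3 by 1.15 ± 0.32 (edgeR adjusted p = 0.013), and in controls this step was 0.10 ± 0.32 (edgeR adjusted p = 0.86). The step from day 0 to day 2 in controls was -0.80 ± 0.32 (edgeR adjusted p = 0.061) and passed with the series as a replicate block (-0.76, adjusted p = 0.045), and in knockout samples it was 0.36 ± 0.32 (edgeR adjusted p = 0.40).

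Snai2 (chromosome 16, 14705852 to 14709385, plus strand, 3 exons) was the least abundant member per kb in the controls at every day. Its level ranged from 1.01 to 1.48 CPM in controls and 0.857 to 2.37 CPM in knockout lines at day 0, from 0.545 to 0.741 and 0.303 to 1.08 CPM at day 2, and from 1.02 to 1.74 and 1.59 to 2.16 CPM at day 3. Lines 19 and 319 held 6 and 7 counts at day 2. Snai2 rose from day 2 to day 3 in knockout samples by 1.43 ± 0.45 (log2, edgeR adjusted p = 0.023), and the step in controls was 1.00 ± 0.44 (edgeR adjusted p = 0.12). Without line 19 at day 2 the knockout step no longer passed (1.26, edgeR adjusted p = 0.061).

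Several of these calls between days did not hold when 1 series was left out, and the calls over all genes changed too. Without HM1 replicate 1, HM1 replicate 2 and line 1A4 in turn, 2833, 3164 and 4504 genes were called in controls at the first step (reported: 6439). At the second step these were 1260, 1215 and 2392 (reported: 3918). Without lines 14, 19 and 319 in turn, the knockout calls were 3813, 6633 and 7712 at the first step (reported: 6561). At the second they were 4386, 5242 and 7584 (reported: 6141). Without any 1 of the 3 control series, the control calls of Epcam and Cldn6 at the first step (edgeR adjusted p = 0.089 to 0.21) and of Cdh1, Epcam, Cldn6 and Cdh2 at the second (0.06 to 0.24) were lost, and so was that of Fn1 at the first step without HM1 replicate 1 (0.086). In knockout samples, leaving out line 14 ended the calls of Cdh2 (0.26) and Zeb2 (0.20) at the first step and of Cldn6 (0.11) and Snai1 (0.099) at the second, leaving out line 19 ended those of Cldn6 (0.15), Snai1 (0.064) and Snai2 (0.15) at the second, and leaving out line 319 ended that of Zeb2 (0.09) at the first. Some knockout calls were also lost without a control series. Cdh2 at the first step was lost without any 1 of them (edgeR adjusted p = 0.061 to 0.065), and Zeb2 without HM1 replicate 1 or HM1 replicate 2 (0.0513 and 0.063). Snai2 at the second step was lost without HM1 replicate 1 (0.0524). Without line 14, control calls of Cldn6 at the first step (0.056) and of Cldn6 and Cdh2 at the second (0.068 and 0.058) were lost. With each series as a replicate block, adjusted p was 0.06 for Cldn6 at the first step in controls, 0.063 for Cdh2 at the first step in knockout samples, and 0.064 and 0.061 for Cldn6 and Cdh2 at the second step in controls.

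The knockout samples were then compared with the controls at each day, which asks whether these genes depend on Nup133. No member was called at day 0, day 2 or day 3, where 0.854%, 1.60% and 5.19% of all genes were called (edgeR quasi-likelihood test). At an unadjusted p below 0.05 there were 5, 2 and 5 members of 10, beside 10.6%, 20.4% and 21.9% of all genes. DESeq2 called 2, 1 and 1 members, beside 3.06%, 7.69% and 11.3% of all genes. The groups did not overlap for 4, 2 and 1 members, beside 17.8%, 21.7% and 35.2% of all genes. The median log2 difference of the members was -0.27, 0.06 and -0.19, and that of all genes 0.01, 0.02 and 0.02.

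At day 0 the members with the lowest differences were Cldn6, Cdh1 and Zeb2. Cldn6 was 67.1 ± 8.44 CPM in controls and 22.3 ± 11.3 CPM in knockout samples (SD, n = 3; log2 -1.56 ± 0.45, SE, edgeR adjusted p = 0.14). It lay below the controls of its own background in all 3 lines, by -1.44, -1.17 and -2.63 in lines 14, 19 and 319. Cdh1 was 923 ± 57.3 and 476 ± 199 CPM (-0.94 ± 0.38, edgeR adjusted p = 0.35), Zeb2 7.62 ± 2.19 and 4.10 ± 1.28 CPM (-0.90 ± 0.23, edgeR adjusted p = 0.10) and Cdh2 23.1 ± 5.61 and 13.2 ± 1.49 CPM (-0.77 ± 0.33, edgeR adjusted p = 0.39). Zeb1 went the other way, with 18.8 ± 3.99 CPM in controls and 30.7 ± 4.76 CPM in knockout samples (0.79 ± 0.30, edgeR adjusted p = 0.32). These 5 had the same sign in each of the 3 lines, and the groups did not overlap for Cldn6, Cdh1, Cdh2 and Zeb1.

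Cldn6 passed at day 0 without line 319 (-1.13, edgeR adjusted p = 0.04), in the HM1-derived lines alone (-1.29, 0.03), in the day 0 samples alone (-1.73, 0.041) and with DESeq2 (-1.56, 0.022), and Zeb2 with DESeq2 (-0.90, 0.015) and without line 19 at day 2 (-0.89, 0.013). Markers of the primitive streak and mesendoderm also differed between genotypes: their summed level over 12 markers was 67.4 to 138 CPM in the day 0 controls and 16.8 to 20.1 CPM in the knockout lines. Of 11 tested markers, 7 were called lower and 0 higher (63.6%, beside 0.854% of all genes). By line the sum was 20.1, 17.2 and 16.8 CPM in lines 14, 19 and 319. HM1 replicate 2 had the highest sum of the controls and their lowest Cdh1. The sum of 8 pluripotency markers was 4925 to 5375 CPM in controls and 5445 to 6997 CPM in knockout lines, highest in line 319, with 0 of the 8 called (edgeR). The part of these markers in the difference of Cldn6 and Cdh1 was not tested.

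At day 2 Snai1 had the highest difference, with 2.89 ± 0.240 CPM in controls and 5.88 ± 0.626 CPM in knockout samples (log2 1.01 ± 0.32, edgeR adjusted p = 0.11). It lay 0.98, 0.78 and 1.28 above the own background in lines 14, 19 and 319, and DESeq2 called it (1.03, adjusted p = 0.023). Zeb2 was -0.62 ± 0.23 (edgeR adjusted p = 0.15) and Cdh1, whose groups did not overlap, -0.55 ± 0.38 (edgeR adjusted p = 0.43). The other 7 members lay between -0.43 and 0.38. Neural crest markers, 11 genes other than Snai2, summed to 35.3 to 49.9 CPM in the day 2 controls and 85.8 to 101 CPM in the knockout lines. Of 10 tested, 2 were called higher and 0 lower (20.0%, beside 1.60% of all genes), and their part in the Snai1 difference was not tested. Foxd3, which pluripotent cells also express, made most of that gap, at 22.5 ± 5.92 and 69.6 ± 9.48 CPM (1.63 ± 0.34, edgeR adjusted p = 0.026). The other 10 markers summed to 19.6 to 23.9 CPM in controls and 20.6 to 26.8 CPM in knockout lines, which overlapped.

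At day 3 the members with the largest differences were Cdh1 and Cdh2, in opposite directions. Cdh1 was 468 ± 120.1 CPM in controls and 222 ± 138 CPM in knockout samples (log2 -1.09 ± 0.38, edgeR adjusted p = 0.11), and Cdh2 51.2 ± 9.42 and 103 ± 59.1 CPM (0.92 ± 0.33, edgeR adjusted p = 0.11). Zeb1 was 0.78 ± 0.30 (edgeR adjusted p = 0.14), Fn1 -0.72 ± 0.32 (0.21) and Epcam -0.67 ± 0.29 (0.20). Vim (-0.15 ± 0.23) and Zeb2 (0.03 ± 0.22) had differences within their standard errors.

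The lines were not alike at day 3. Cdh1 lay -1.19 and -1.83 from the HM1 mean in lines 14 and 19 and -0.67 from line 1A4 in line 319. Cdh2 lay 1.12 and 1.53 above in lines 14 and 19 and at -0.21 in line 319. Epcam was -0.95, -1.27 and -0.13 in lines 14, 19 and 319, and Cldn6 -0.76, -1.15 and -0.07. The fit of HM1-derived lines alone set lines 14 and 19 against the 2 replicates of HM1, so its control spread was between replicates of 1 line. In that fit, 4 of 10 members were called at day 3, beside 6.06% of all genes: Cdh1 (-1.49, edgeR adjusted p = 0.012), Epcam (-1.12, 0.014), Cldn6 (-0.96, 0.044) and Cdh2 (1.31, 0.034). Without line 319 but with line 1A4 there were 5, the same 4 and Zeb1 (0.92, edgeR adjusted p = 0.0463), beside 10.8% of all genes. The day 3 samples alone gave 4 (Cdh1, Epcam, Fn1 and Zeb1), beside 15.1% of all genes, and leaving out line 19 at day 2 gave 2 (Cdh2 and Fn1), beside 15.8%.

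**Figure D4:**
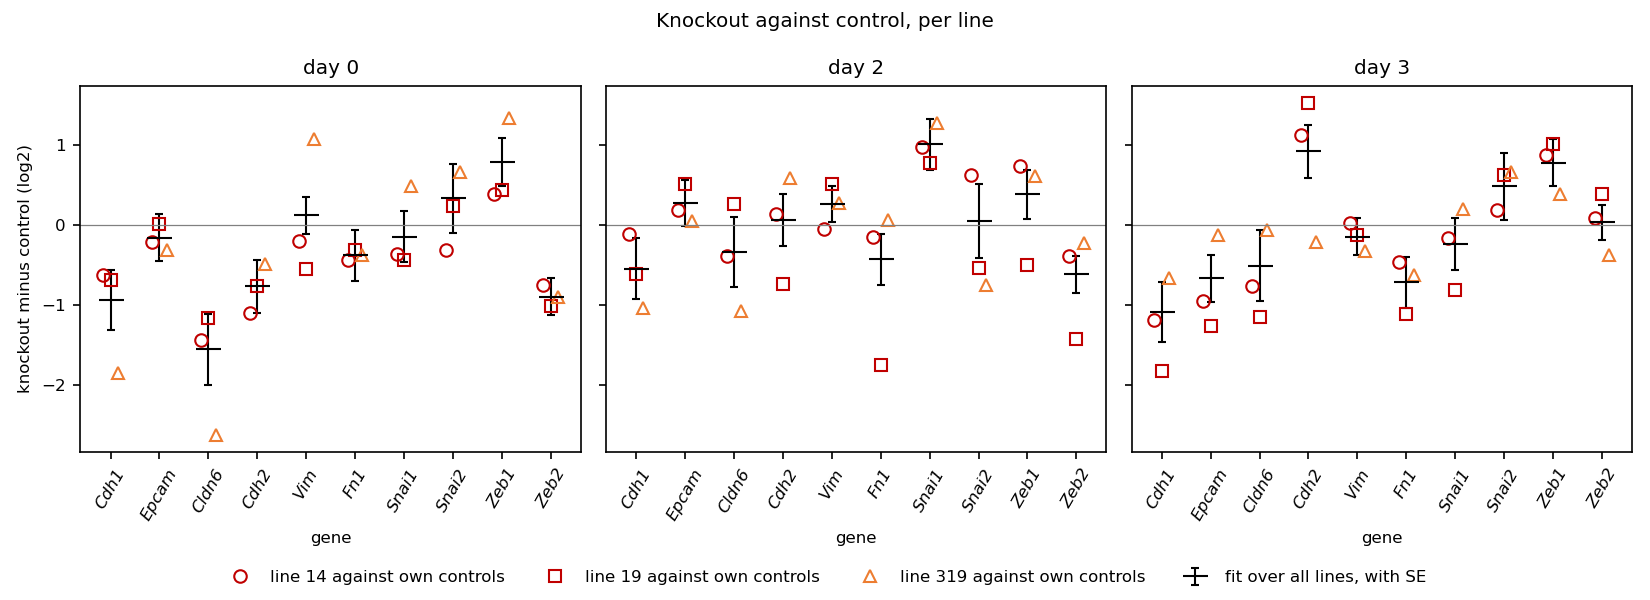
Knockout minus control (log2) for each gene at days 0, 2 and 3, with each line against the controls of its own background and the estimate over all lines with its standard error. At day 3 lines 14 and 19 lie above 1 for Cdh2 and below -0.9 for Epcam, whereas line 319 lies near 0 for both; at day 0 line 319 has the lowest Cdh1 and Cldn6.

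That difference between backgrounds was tested itself, with the blastocyst-derived groups of 1 sample each assumed to vary like the others. The knockout effect in HM1-derived lines minus that in blastocyst-derived lines at day 3 was 1.54 ± 0.52 for Cdh2 (log2, edgeR adjusted p = 0.37), -0.97 ± 0.33 for Epcam (0.38), -0.88 ± 0.41 for Cldn6 (0.57) and -0.81 ± 0.42 for Cdh1 (0.63). None of the 10 passed, where 0.0219% of all genes did, while Cdh2 and Epcam had an unadjusted p of 0.014 and 0.015, where 9.12% of genes were below 0.05. At day 0 the signs were turned for the epithelial genes: Cldn6 was 1.33 ± 0.41 (edgeR adjusted p = 0.18) and Cdh1 1.19 ± 0.42 (0.24), and Vim was -1.44 ± 0.36 (0.10). Background, karyotype and line cannot be told apart here, since line 319 is the single blastocyst-derived knockout line.

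Marker levels of several other kinds moved with the Cdh1 and Cdh2 values of the lines at day 3. The sum of 11 neural progenitor markers was 653 and 957 CPM in lines 14 and 19, 290.3 CPM in line 319 and 326 to 391 CPM in controls. Of the 11, 1 was called higher, Pax6 (9.09%, beside 5.19% of all genes). Pax6 (30.2 ± 10.7 CPM in controls, 179 ± 143 CPM in knockout samples) and Nes (170 ± 40.1 and 296 ± 138 CPM) differed most in CPM. Sox3 (44.4 and 32.1 CPM), Hes5 (9.82 and 5.43 CPM) and Fabp7 (4.53 and 1.84 CPM) averaged lower in knockout samples, while 8 of the 11 had a positive log2 difference. The sum of 8 pluripotency markers was 489 and 330.1 CPM in lines 14 and 19, 989 CPM in line 319 and 653 to 756 CPM in the controls, with 0 of the 8 called (edgeR). The sum of 15 primitive endoderm markers was 703 and 829 CPM in lines 14 and 19, 481 CPM in line 319 and 568 to 636 CPM in controls. Of 14 tested, 3 were called higher and 0 lower (edgeR, 21.4%, beside 5.19% of all genes), and 8 had a positive log2 difference. The part of all these markers in the cadherin values was not tested. Cdh1 lies on chromosome 8, whose median was low in lines 319 and 19. With each chromosome centred on its own median, a setting chosen after seeing the data, the Cdh1 difference became -0.73, -0.27 and -0.73 at days 0, 2 and 3 (edgeR adjusted p = 0.55, 0.71 and 0.27). The part of chromosome 8 in the Cdh1 difference was not tested.

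Whether the steps between days differed by genotype was tested with the interaction. None of the 10 members passed at either step, where 0.0219% and 0.0383% of all genes did, and 1 and 2 members had an unadjusted p below 0.05, beside 7.16% and 8.90% of genes. Snai1 had the highest interaction but for Cldn6 at the first step (1.16 ± 0.45, edgeR adjusted p = 0.58) and the lowest at the second (-1.26 ± 0.45, 0.48). Epcam at the second step was -0.93 ± 0.41 (edgeR adjusted p = 0.56), and passed without line 319 (-1.61, 0.017). For Cdh1 (-0.54 ± 0.53) and Cdh2 (0.86 ± 0.46) the second step was not shown to differ between genotypes (edgeR adjusted p = 0.72 and 0.57).

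Other genes of the same pathways were counted from lists without the 10 members, chosen with earlier results of these data known. Of 33 genes of epithelial junctions and identity, 0 were called higher and 6 lower in knockout samples at day 0 (median log2 -0.82, all genes 0.01), 0 and 2 at day 2 (-0.53, all genes 0.02) and 0 and 5 at day 3 (-0.49, all genes 0.02). These were 18.2%, 6.06% and 15.2% of the list, beside 0.854%, 1.60% and 5.19% of all genes. At day 0 the keratins of simple epithelium led, with Krt19 at 30.5 ± 16.5 CPM in controls and 2.21 ± 0.712 CPM in knockout samples (-3.87 ± 0.45, edgeR adjusted p = 0.00044), Krt8 at -2.83 and Krt18 at -2.49. Esrp2, an epithelial splicing regulator, was -1.44 ± 0.23 at day 2 (edgeR adjusted p = 0.0082). The tight junction gene Tjp3 was -1.27 ± 0.24 at day 2 and -1.26 ± 0.24 at day 3 (edgeR adjusted p = 0.016 and 0.01), and Rab25, which serves apical recycling, -2.01 ± 0.44 at day 3 (0.019). From day 2 to day 3 the list had 2 genes higher and 7 lower in controls (27.3%, beside 21.4% of all genes) and 3 and 13 in knockout samples (48.5%, beside 33.6%). Desmoplakin (Dsp) rose against that direction, by 3.11 ± 0.35 and 3.99 ± 0.36 (edgeR adjusted p = 1.7e-05 and 1.8e-06).

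Of 23 mesenchymal markers, none was called between genotypes at day 0 (edgeR), and 4 had a positive log2 difference. Their median difference was -0.43, -0.17 and -0.03 at days 0, 2 and 3, where all genes had 0.01, 0.02 and 0.02. At day 2, 1 was higher and 1 lower (8.70%, beside 1.60% of all genes), and at day 3, 1 was higher and 0 lower (4.35%, beside 5.19%). The calcium-binding S100a4 was the one higher at both, by 2.01 ± 0.46 and 1.88 ± 0.49 (edgeR adjusted p = 0.039 and 0.039), from 1.24 and 0.617 CPM in controls, and Snai3, a relative of Snai1, the one lower at day 2 (-1.67 ± 0.38, 0.04). S100a4 is also 1 of the fibroblast markers, of which 25.0% of 16 tested were called at day 2 and at day 3, beside 1.60% and 5.19% of all genes. There it was the only one called higher at days 2 and 3 (edgeR), and 3 others were called lower at both. These were the contractile genes Acta2 (-3.16 ± 0.48 and -3.45 ± 0.48, edgeR adjusted p = 0.0054 and 0.0017) and Tagln (-2.07 ± 0.50 and -2.06 ± 0.49, 0.0488 and 0.026), and the matrix gene Postn, at 1.71 and 2.54 CPM in controls and 0.0334 and 0.243 CPM in knockout samples. In controls the mesenchymal list had 4 higher and 11 lower from day 0 to day 2 (65.2%, beside 35.2% of all genes), with the matrix gene Tnc at -2.91, and 6 higher and 2 lower from day 2 to day 3 (34.8%, beside 21.4%). Its medians at these steps were -0.68 and 0.38, where all genes had 0.01 and 0.00.

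Among 20 further cadherins, catenins and nectins, 0 were called between genotypes at days 0 and 2 and 1 at day 3 (5.0%, beside 5.19% of all genes). That 1 was Cdh3 (P-cadherin), with 30.6 ± 5.96 CPM in controls and 9.76 ± 4.16 CPM in knockout samples at day 3 (-1.64 ± 0.36, edgeR adjusted p = 0.019). Cdh3 also fell with Cdh1 from day 2 to day 3, by 1.47 ± 0.35 in controls and 2.33 ± 0.37 in knockout samples (edgeR adjusted p = 0.0076 and 0.00027). Cdh6 (K-cadherin) rose from 0.407 ± 0.254 to 28.7 ± 13.0 CPM in controls at that step (6.15 ± 0.60, edgeR adjusted p = 4.5e-06) and by 7.77 ± 0.71 in knockout samples (2.0e-06). Of 13 tested claudins other than Cldn6, Cldn1 was higher (1.86 ± 0.40, edgeR adjusted p = 0.018) and Cldn4 lower (-1.64 ± 0.39, 0.026) in knockout samples at day 3, and Cldn15 was higher at days 2 and 3. The calls made up 7.69% and 23.1% of these claudins at days 2 and 3, beside 1.60% and 5.19% of all genes. Cldn4 is also in the list of epithelial junctions and identity, so its day 3 call is counted in both lists.

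Of 17 tested receptors of fibronectin and laminin, none was called between genotypes at any day (edgeR). From day 2 to day 3, 8 were higher and 0 lower in controls (47.1%, beside 21.4% of all genes) and 9 and 2 in knockout samples (64.7%, beside 33.6%), with Itga3 at 75.9 ± 11.2 and 225 ± 39.8 CPM in controls (1.57 ± 0.38, edgeR adjusted p = 0.0081). Of 17 genes of the TGF-beta pathway, a known inducer of the Snail and Zeb genes, the ligand Tgfb2 was called lower in knockout samples at day 0 (-1.85 ± 0.31, edgeR adjusted p = 0.0081) and day 2 (-2.32 ± 0.33, 0.0031), and none at day 3. That was 5.88% of the list at days 0 and 2, beside 0.854% and 1.60% of all genes.

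Across the 18 samples, which share lines and days, Cdh1 went with Epcam (Pearson r = 0.84 of log2 CPM) and Cldn6 (0.75), Cdh2 with Zeb2 (0.90), and Zeb1 against Cldn6 (-0.90) and Epcam (-0.85). The r of Cdh1 with Cdh2 was -0.62 and with Snai1 0.42. The genes outside the 10 with the pattern most like Cdh1 were Bspry (r = 0.95), Lad1 (0.939) and Ap1m2 (0.939), and those most like Cdh2 were Irx3 (0.958), Asb4 (0.953) and Mylk (0.951), each over 18 samples. Irx3 averaged 3.54 CPM in the day 2 controls and 13.5 CPM in the day 3 controls, against 3.57 and 46.1 CPM in knockout samples.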

How the data were processed

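Raw counts for each Ensembl transcript were deposited for 72 libraries, 4 technical libraries for each of 18 samples. Per the submitters' processing notes bcl2fastq 2.17.1.14, STAR 2.4.0k, SAMtools, HTSeq and the build mm10 were used, and libraries were stranded, per the labels' protocols. Whether counting used strand is not given in the sources used here. Reads in shared exons had been counted for each transcript, so each gene was represented by its transcript with the highest total. GENCODE M21 (GRCm38) matched 108214 of 110379 transcripts. Unmatched ones held 1.44% to 2.48% of counts and were left out. Technical libraries, whose chi-square per degree of freedom was 1.009 to 1.028, were summed.

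Tests used edgeR 4.0.16 with limma 3.58.1 in R 4.3.3: TMM, filterByExpr on 6 groups, robust quasi-likelihood fit with a term for genetic background, 11 residual degrees of freedom, and Benjamini-Hochberg adjustment over 18273 genes. The script was tested on simulated counts. A fit of 12 groups, with background in each group, tested whether genotype effects differed between backgrounds and was added after results were seen. DESeq2 1.42.0, other scalings, filters, transcripts and subsets of samples were alternatives. Same-series samples come from the same line, which pairs them between days. Their deviations from group means correlated above 0.1 in 17 of 18 pairs (-0.104 to 0.558).

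The members and lists were chosen with earlier results of these data known. Named genes were the 10 members, at most 4 called genes per list and comparison by absolute fold change, given that the higher group averaged 1 CPM or more, and 3 genes most like Cdh1 and Cdh2 each.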

Additional observations from a re-analysis of the deposited data

Results flagged for a closer look

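The values of Snai1 from day 0 to day 2 had opposite signs in the genotypes, and neither step passed: -0.80 ± 0.32 in controls and 0.36 ± 0.32 in knockout samples (edgeR adjusted p = 0.061 and 0.40). By series the differences were -0.51, -1.11 and -0.66 (log2) in HM1 replicate 1, HM1 replicate 2 and line 1A4, and 0.52, 0.41 and 0.14 in lines 14, 19 and 319. The interaction was 1.16 ± 0.45 and did not pass (edgeR adjusted p = 0.58).

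The difference of Epcam between genotypes had opposite signs at day 2 and day 3 in each knockout line. Set against controls of the same background, lines 14, 19 and 319 lay 0.18, 0.51 and 0.05 higher at day 2, and at -0.95, -1.27 and -0.13 at day 3. The change of the difference was -0.93 ± 0.41 and did not pass (edgeR adjusted p = 0.56).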

How the results depend on the processing

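Over 17 alternatives, 1377 of 1470 values of single members stayed on their side of the threshold, 41 of them with the other sign and called in neither fit, while 53 no longer passed, 40 newly passed, and no called value changed sign. The count of members called between genotypes, 0 at each day in the reported fit, became 2, 1 and 1 at days 0, 2 and 3 with DESeq2, 1 at day 0 and 4 at day 3 in HM1-derived lines only, 1 and 2 without line 19 at day 2, and 1 and 4 in samples of that day alone. Over all genes, calls at day 0 went from 156 to 560, 313, 378 and 244 in these settings, in that order. At day 3 they went from 948 to 2063, 1121, 2994 and 2546. Leaving out each replicate in turn gave 0 to 1 members at day 0 and 0 to 5 at day 3, the higher count in each case without line 319. Calls over all genes ranged from 18 to 406 and from 17 to 2020 in these fits, also highest without line 319. For the steps in controls, leaving out each replicate gave 2 to 7 of 10 from day 0 to day 2 (reported: 5) and 2 to 7 from day 2 to day 3 (reported: 6). The 2 were Zeb1 with Vim without HM1 replicate 1 at the first step, and Zeb1 with Zeb2 without any 1 of the control series at the second. Calls over all genes ranged from 2833 to 8900 (reported: 6439) and from 1215 to 6361 (reported: 3918). For the change of the genotype difference from day 2 to day 3, leaving out each replicate gave 0 to 1 members, beside 1 to 133 of all genes (reported: 7). The cause of these shifts was not tested. With the series as a replicate block, members called at the 2 steps were 5 and 4 in controls and 6 and 8 in knockout samples, and none between genotypes, where the block correlation was 0.00946. The replicate block changed no call other than the 5 given above. Upper-quartile scaling moved the median of all genes to 0.15 (log2) from day 0 to day 2 in knockout samples and changed no count of members. Centring each chromosome was chosen after seeing the data.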
